A study of Mus musculus with 32 samples.

Results

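The NF-kappaB subunits and their feedback inhibitors are 10 of the 21899 genes in the deposited expression table of cultured mouse astrocytes, and were picked by gene symbol. Grouped as inhibitors were Nfkbia, Nfkbie, Nfkbiz, Bcl3 and Tnfaip3, and the subunits were Nfkb1, Nfkb2, Rel, Rela and Relb. The products of Nfkbiz and Bcl3 act in the nucleus, and that of Nfkbiz is needed for some genes to be switched on. For these genes inhibitor is a group name only. Each symbol had 1 row in the table, and all 10 passed the filter on low values in every comparison. They are described across 8 groups of 4 libraries each (32 in all), all of primary mouse astrocytes. The groups were untreated cells (Control), cells given photobiomodulation (PBM, treatment with light), cells given lipopolysaccharide (LPS, a component of the bacterial outer membrane) and cells given LPS and light together (LPS+PBM). Each group was collected at 4 h and at 24 h. Mouse strain and age, LPS dose, and the wavelength, dose and schedule of the light are not stated in what was available, nor is it said that the 4 libraries of a group came from separate cultures. P-values therefore measure the spread between these libraries only, which may be technical. The title of the series places the work in LPS-inflamed astrocytes under light, with the STAT5A and SOCS3 proteins as its subject.

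NF-kappaB transcription factors are dimers of the RELA, RELB, c-REL, p50 and p52 proteins, and in resting cells most of them are held in the cytosol by IkappaB proteins. LPS acts through Toll-like receptors and the IKK kinase complex to destroy IkappaB alpha, and the freed dimers enter the nucleus and switch on cytokine, chemokine and adhesion genes, in astrocytes as in other cells. Among the genes they switch on are several that encode their own inhibitors and subunits, which forms a feedback loop.

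Promoter sequence is shown for Nfkbia, Tnfaip3 and Nfkb2, which were called higher under LPS at both times, for Rel, which was called higher for LPS+PBM against PBM at 4 h, and for Rela, which was called in no LPS comparison, since NF-kappaB dimers bind a 10-base element, the kappaB site, near the starts of their target genes. RefSeq windows of the assembly GRCm38.p6, each of 250 bases before and 50 bases from the annotated transcription start, were matched by symbol for 7 of the 10 members (10 windows, since Tnfaip3 and Nfkb2 have several starts), while Nfkbiz, Nfkb1 and Relb had no entry. The consensus kappaB motif was GGGRNNYYCC, with R for A or G, Y for C or T and N for any base. This motif was searched on both strands, counting overlapping and palindromic matches at one place as 1 stretch. It was found in 8 of the 10 windows, against 8.46% of all 32851 mouse windows, and in 6 of the 7 members, against 9.55% of all genes with a window. The windows at the second and the third start of Nfkb2 overlap and share 1 match (GGGACTTTCC, from base 11 after the second start), so the 8 windows are not independent. For the second start of Nfkb2 and the start of Nfkbie, the first bases after the start were not found in a GENCODE transcript of the gene. Positions counted from these starts carry that limit. The windows of Nfkbia (chr12:55492598-55492897, minus strand), Tnfaip3 at its first start (chr10:19015361-19015660, minus strand), Nfkb2 at its first start (chr19:46304487-46304786, plus strand), Rel (chr11:23770920-23771219, minus strand) and Rela (chr19:5637291-5637590, plus strand) read as follows, 5′ to 3′ on the gene's strand, with bases inside a consensus match in capitals.
Nfkbia: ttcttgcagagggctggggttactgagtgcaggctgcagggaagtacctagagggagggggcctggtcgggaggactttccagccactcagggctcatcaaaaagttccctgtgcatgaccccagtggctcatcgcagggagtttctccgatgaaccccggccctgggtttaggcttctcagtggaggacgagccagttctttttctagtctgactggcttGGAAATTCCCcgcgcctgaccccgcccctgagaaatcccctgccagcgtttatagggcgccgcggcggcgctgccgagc
Tnfaip3: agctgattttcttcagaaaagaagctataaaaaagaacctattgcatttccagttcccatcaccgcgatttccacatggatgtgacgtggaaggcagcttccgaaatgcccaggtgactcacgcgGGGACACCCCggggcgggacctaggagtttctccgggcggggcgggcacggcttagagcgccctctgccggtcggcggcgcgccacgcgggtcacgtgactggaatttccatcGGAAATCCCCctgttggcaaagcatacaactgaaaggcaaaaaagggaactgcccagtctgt
Nfkb2: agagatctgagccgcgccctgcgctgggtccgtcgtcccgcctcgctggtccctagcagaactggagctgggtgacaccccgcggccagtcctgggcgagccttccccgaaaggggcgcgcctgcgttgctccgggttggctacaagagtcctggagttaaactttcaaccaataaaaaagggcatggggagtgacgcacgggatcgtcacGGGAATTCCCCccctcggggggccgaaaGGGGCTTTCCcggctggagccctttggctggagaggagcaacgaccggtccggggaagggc
Rel: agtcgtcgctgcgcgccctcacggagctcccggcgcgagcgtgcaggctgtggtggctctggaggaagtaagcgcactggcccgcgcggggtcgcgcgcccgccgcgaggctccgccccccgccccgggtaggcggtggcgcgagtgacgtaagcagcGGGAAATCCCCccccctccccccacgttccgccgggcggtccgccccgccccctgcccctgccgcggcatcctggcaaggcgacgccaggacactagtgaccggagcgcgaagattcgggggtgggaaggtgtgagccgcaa
Rela: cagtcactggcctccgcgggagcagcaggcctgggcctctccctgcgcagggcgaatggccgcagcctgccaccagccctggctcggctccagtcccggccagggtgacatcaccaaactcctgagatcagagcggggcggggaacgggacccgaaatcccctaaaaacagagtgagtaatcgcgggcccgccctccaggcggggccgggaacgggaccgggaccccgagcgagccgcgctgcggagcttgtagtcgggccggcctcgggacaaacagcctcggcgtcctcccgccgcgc

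In the Nfkbia window the match lay on the other strand and began 29 bases before the start (GGGAATTTCC read on that strand). Tnfaip3 held matches 125 and 12 bases before its first start. In Nfkb2 a palindromic match (GGGAATTCCC) lay 39 bases and a further one (GGGGCTTTCC) 11 bases before the first start. Rel carried 1 stretch from 92 bases before its start (GGGAAATCCC). The windows of Nfkbie and Bcl3, not printed, held GGGGGATTCC from 106 bases before the start and GGGAAGTCCC from base 3 after it. The window of Rela and that of the other start of Tnfaip3 held no match, which says only that these letters are not within these 300 bases. A match is a description of the sequence and does not show that a factor was bound there.

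**Figure D1:**
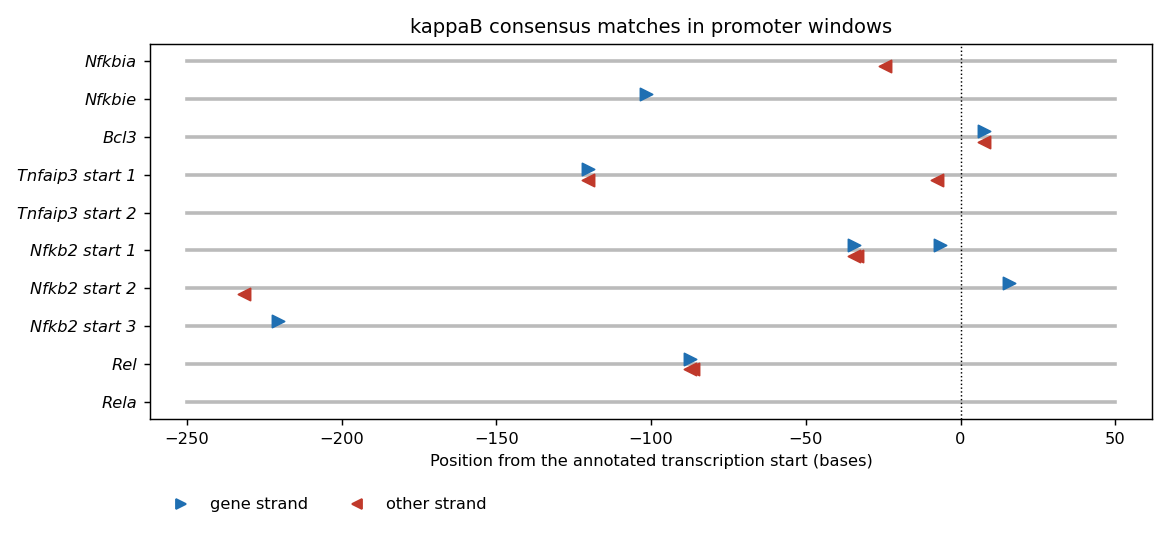
Positions of kappaB consensus matches in the RefSeq promoter windows of 7 members (grey lines, 250 bases before to 50 bases after each annotated start; x axis in bases from the start). Triangles point along the matched strand; matches are seen in 8 of the 10 windows, and Rela and the second start of Tnfaip3 have none.

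Expression was measured as FPKM, fragments scaled to transcript length and library size. Levels of different genes can be set side by side only with caution. Ppia, a housekeeping gene, was listed at 0 in 14 libraries and reached at most 25.8 FPKM, so levels listed for a gene may be too low. The libraries were shallow. From the steps in which low values rise, each holds an inferred 130780 to 143930 fragments. Bcl3, Rel and Nfkbie therefore rest on few fragments, and intervals and tests at these levels are wide. The same limit holds for Nfkbia, Nfkbiz and Relb in the PBM 24 h group, with about 7, 16 and 4 fragments over the whole group. Relb in the PBM 4 h group rests on about 8. Astrocyte markers were present, with Gfap at group means of 22.3 to 67.6 FPKM and Gja1 at 41.2 to 58.6, although Gjb6 was listed at 0 in all 32 libraries and S100b in 24. Of 17 microglia and macrophage markers 10 were above 0 in every library, among them Csf1r (group means 25.9 to 67.9 FPKM), while P2ry12 was listed at 0 in 28 libraries and Aif1 in 24. The mural marker Acta2 (611 to 1170.0 FPKM) and the fibroblast marker Col1a2 (551 to 976 FPKM) were abundant. The mural marker Pdgfrb and the fibroblast markers Col1a1 and Dcn were also above 0 in every library. Other markers on these lists were low. The highest group mean was 6.56 FPKM for the mural marker Rgs5, and 8.4 and 8.15 FPKM for the fibroblast markers Lum and Pdgfra. Rgs5 was listed at 0 in 4 libraries, Lum in 7 and Pdgfra in 10. Markers of other types were mixed: of 6 neuronal markers 2 (Rbfox3 and Snap25) were listed at 0 throughout and Stmn2 was above 0 in every library (23.4 to 47.6 FPKM), of 8 oligodendrocyte lineage markers Mog was at 0 throughout and Cspg4 above 0 in every library (20.0 to 43.2), and of the endothelial markers Cldn5 was at 0 throughout and Cdh5 above 0 in every library (4.53 to 9.72). The cultures thus held RNA of several cell types, and which cells carried the NF-kappaB transcripts was not tested. In such bulk samples fewer cells of a type and less RNA per cell cannot be told apart. Of the columns, 6 stand at the end of the table out of group order (LPS 4 h replicate 1, LPS+PBM 4 h replicate 2, PBM 24 h replicate 2, LPS 24 h replicates 2 and 4, LPS+PBM 24 h replicate 1), and values without them are given where they end a call.

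In untreated cells at 4 h the members with the highest levels were Nfkbiz, which encodes the nuclear protein IkappaB zeta, at 41.7 ± 7.21 FPKM (mean ± SD, n = 4 here and below), Nfkbia, which encodes IkappaB alpha, at 38.0 ± 15.8, and Rela, which encodes the main transactivating subunit, at 36.1 ± 15.1. These differ by less than their spread. Nfkb1 (25.2 ± 12.7) and Nfkb2 (24.1 ± 2.38), the genes of the p50 and p52 precursors, came next and overlap each other. Lower still were Tnfaip3 (12.7 ± 3.63) and Relb (11.5 ± 3.65), then Nfkbie (6.03 ± 4.26) and Rel (3.88 ± 2.13), each pair overlapping. Bcl3 was listed at 0 in all 8 Control and all 8 PBM libraries. The order at 24 h began with the same 3 genes, Nfkbiz at 39.5 ± 11.4, Rela at 36.2 ± 10.6 and Nfkbia at 24.7 ± 2.69 FPKM.

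**Figure D2:**
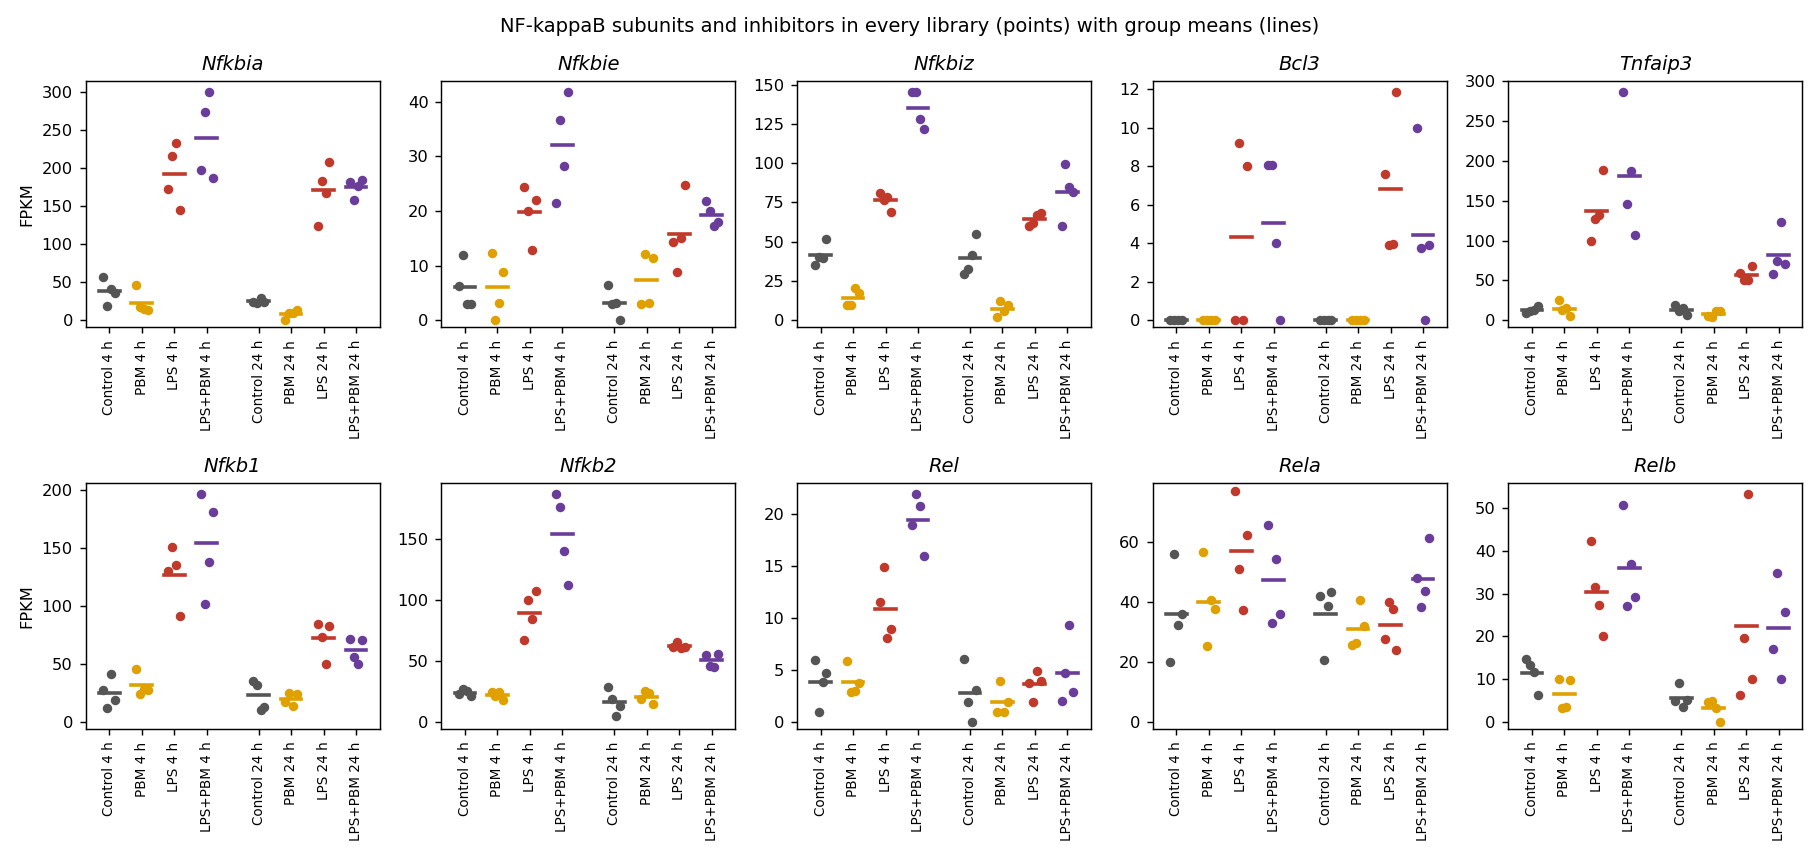
FPKM (y axis, linear, a separate scale in each panel) of the 10 members in every library (points) by group (x axis), with group means as lines. Nfkbia, Tnfaip3, Nfkb1 and Nfkb2 stand higher in every LPS and LPS+PBM library than in the Control and PBM libraries of the same time, Rela overlaps throughout, and Nfkbiz is lower in PBM than in Control at both times.

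LPS at 4 h raised 2 feedback inhibitors and both precursor subunits. Nfkbia, whose protein is rebuilt after each round of degradation and returns the dimers to the cytosol, had 56.8, 18.4, 41.3 and 35.4 FPKM in the Control libraries and 173, 216, 233 and 145 in the LPS libraries. All 4 LPS libraries lay above all 4 Control libraries, and Nfkbia rose by 2.39 ± 0.36 (log2 difference of FPKM + 1 ± standard error, here and below; limma, adjusted p = 0.000403). Tnfaip3, which encodes the ubiquitin-editing enzyme A20 that shuts off signalling upstream of IKK, went from 8.61, 11.8, 13.1 and 17.4 FPKM to 98.9, 127, 132 and 189. That was the steepest rise among the 10 genes, 3.33 ± 0.39 (limma, adjusted p = 2.34e-05), with means 10.8 times apart. Nfkb1 had 27.9, 12.1, 41.5 and 19.3 FPKM in Control and 130.3, 151, 136 and 91.3 under LPS, without overlap, a rise of 2.40 ± 0.33 (limma, adjusted p = 0.000128). Nfkb2, the precursor gene of the noncanonical pathway, was tight within both groups, at 21.4 to 26.9 FPKM against 67.2 to 108, and rose by 1.84 ± 0.23 (limma, adjusted p = 4.85e-05). In total 4 of the 10 members were called higher (adjusted p under 0.05), against 1.75% of the 13247 genes tested, and none lower, where 0.476% of genes were. Leaving out any single library kept these 4 calls.

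The other 6 members were not called at 4 h, although in 4 of them every LPS library lay above every Control library (8 of 10 members in all, against 3.65% of genes tested). Nfkbie, which encodes IkappaB epsilon, a late-acting cytosolic inhibitor, had 6.34, 11.9, 2.97 and 2.87 FPKM in Control and 24.4, 20.0, 12.8 and 22.0 under LPS (limma, adjusted p = 0.256). Rel, the gene of c-REL, had 6.00, 0.97, 3.88 and 4.67 against 11.5, 14.9, 8.05 and 8.92 FPKM (adjusted p = 0.199), and Relb, whose product pairs with p52, 14.7, 13.2, 11.8 and 6.34 against 42.3, 31.6, 27.3 and 20.2 (adjusted p = 0.132, limma). For these 3 genes the groups did not overlap, but they rest on about 8, 16 and 14 fragments over the whole Control group. Nfkbiz, at 35.0, 40.1, 39.9 and 52.0 FPKM in Control, had 81.0, 76.7, 78.7 and 68.8 under LPS, a difference of 0.87 ± 0.25 that missed the threshold (limma, adjusted p = 0.0838) and passed it with limma-voom on approximate fragment numbers (adjusted p = 0.0212). Rela overlapped, at 19.9, 56.3, 32.3 and 36.0 against 77.1, 51.2, 37.2 and 62.5 FPKM (limma, adjusted p = 0.45, 95% interval -0.03 to 1.40). Bcl3, a nuclear IkappaB protein that binds p50 and p52 dimers, was listed at 0, 9.21, 0 and 8.00 FPKM in the LPS libraries (adjusted p = 0.45); no fold is given against a group listed at 0, and the gene shares 161 exonic bases with the antisense gene Gm16175, whose reads cannot be told apart without strand. Nfkb2, which was called, likewise shares 299 exonic bases with Psd and 531 with AC114539.1, both on the opposite strand.

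At 24 h the same 4 genes were again called higher under LPS, and Bcl3 was added. The LPS libraries held 124, 183, 168 and 208 FPKM of Nfkbia, against 24.0, 22.1, 28.5 and 24.2 in Control. The rise was 2.72 ± 0.55 (limma, adjusted p = 0.00809). Tnfaip3 had 19.2, 11.3, 15.6 and 7.06 FPKM in Control and 58.7, 51.0, 50.8 and 68.2 under LPS, a rise of 2.10 ± 0.39 (limma, adjusted p = 0.00374). Its 4 LPS libraries again all lay above the Control libraries. Nfkb1 had 35.5, 32.1, 10.6 and 13.1 FPKM in Control and 84.2, 73.0, 49.8 and 82.5 under LPS and rose by 1.77 ± 0.36 (limma, adjusted p = 0.0081). Nfkb2 had 28.4, 19.1, 4.79 and 12.8 FPKM in Control and 61.2, 65.9, 60.3 and 61.6 under LPS and rose by 2.10 ± 0.38 (limma, adjusted p = 0.00281). Bcl3 was listed at 0 in every Control library and at 7.58, 3.90, 3.97 and 11.8 FPKM in the LPS libraries (limma, adjusted p = 0.0203), about 7 fragments in all, and this call was lost in 6 of the 8 fits that left out 1 library (adjusted p = 0.0512 to 0.0657), being kept without LPS 24 h replicate 2 or 3. The 5 calls compare with 1.62% of 13278 genes called higher and 0.941% called lower. Every LPS library lay above every Control library in 7 of 10 members, against 3.59% of genes. The calls rest on libraries that include 2 of the columns at the end of the table: without those columns LPS at 24 h keeps 2 libraries and 0 of 10 members were called. Nfkbia was not called with a pseudocount of 0.1 either (adjusted p = 0.254).

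Nfkbie stood just outside the threshold at 24 h, at 6.44, 2.97, 3.18 and 0 FPKM in Control and 14.4, 8.89, 15.1 and 24.8 under LPS without overlap (limma, 2.25 ± 0.61, adjusted p = 0.0571), and it was called without Control 24 h replicate 1 (adjusted p = 0.0329), with limma-voom (0.0399) and after quantile normalization (0.0481). Nfkbiz had 59.9, 61.7, 66.8 and 68.4 FPKM under LPS and 29.3, 32.8, 41.3 and 54.8 in Control (limma, 0.72 ± 0.37, adjusted p = 0.43). Both groups were apart for it, but by little. Relb under LPS was uneven, at 6.38, 19.6, 53.3 and 9.93 FPKM against 4.97, 9.17, 3.41 and 5.01 (adjusted p = 0.359), with replicate 3 far above the rest. Rel (0 to 6.09 against 1.93 to 4.92 FPKM, adjusted p = 0.78) and Rela (20.6 to 43.3 against 24.2 to 40.1 FPKM, adjusted p = 0.921) overlapped (limma). Over the 10 members the median log2 difference under LPS was 1.67 at 4 h and 1.93 at 24 h, beside -0.07 and -0.05 over all genes tested.

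The same LPS contrast within light-treated cells, LPS+PBM against PBM, called 8 of 10 members higher at 4 h (1.8% of genes tested were called higher and 0.83% lower). Nfkbiz had 9.76, 9.73, 20.5 and 17.3 FPKM with light alone and 145, 145, 128 and 122 with LPS and light. Its means were 9.44 times apart and it rose by 3.22 ± 0.25 (limma, adjusted p = 1.09e-07). Nfkb2 went from 24.1, 21.3, 24.6 and 17.7 FPKM to 187, 176, 141 and 112, a rise of 2.74 ± 0.23 (limma, adjusted p = 3.75e-07). Nfkbia had 46.6, 17.9, 14.1 and 13.2 FPKM with light and 198, 274, 299.8 and 187 with both, and rose by 3.49 ± 0.36 (limma, adjusted p = 4.76e-06). These 3 genes showed no overlap between the groups. Tnfaip3 (4.82 to 24.9 to levels of 107 to 286 FPKM) rose by 3.65 ± 0.39, and Nfkb1 (23.6 to 45.5 against 101 to 197 FPKM) by 2.26 ± 0.33 (limma, adjusted p = 8.4e-06 and 0.000271). Relb had 10.0, 3.21, 3.38 and 9.82 FPKM with light and 50.7, 27.1, 36.9 and 29.3 with both, and rose by 2.39 ± 0.42 (limma, adjusted p = 0.00222). In all, 8 of 10 members had no overlap, against 3.86% of genes. Rel, at 5.91, 2.83, 2.99 and 3.73 against 19.0, 21.9, 20.8 and 16.0 FPKM, rose by 2.10 ± 0.49 (limma, adjusted p = 0.023), and Nfkbie, at 12.3, 0, 3.15 and 8.86 against 21.4, 36.7, 28.2 and 41.7 FPKM, by 2.73 ± 0.65 (limma, adjusted p = 0.0275). Rel was not called without PBM 4 h replicate 2, 3 or 4 or LPS+PBM 4 h replicate 1, 2 or 3 (adjusted p = 0.0529 to 0.0652), and Nfkbie without PBM 4 h replicate 2 or 3 or LPS+PBM 4 h replicate 2, 3 or 4 (0.0554 to 0.0793). Without the columns at the end of the table neither was called (0.0833 and 0.0888), and neither was with a pseudocount of 0.1 (0.0616 and 0.0845). Rela (25.3 to 56.9 against 32.9 to 65.7 FPKM) overlapped, and Bcl3, listed at 8.05, 8.05, 4.00 and 0 FPKM, was not called (limma, adjusted p = 0.8 and 0.209). The median of all genes moved by -0.16 in this comparison, and by -0.05 after quantile normalization; the median of the members was 2.56.

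At 24 h LPS with light called 5 members higher than light alone, where 1.81% of genes were called higher and 0.896% lower. Nfkbia had the widest gap, at 0, 9.24, 9.28 and 13.3 FPKM with light and 181, 159, 177 and 184 with both, a rise of 4.82 ± 0.55 (limma, adjusted p = 1.62e-05). This difference includes a library listed at 0 and rests on about 7 fragments over the PBM group. It ranged from 3.94 to 5.22 without 1 library at a time. Nfkbiz went from 1.93, 12.1, 6.06 and 9.62 FPKM to 60.2, 99.8, 84.7 and 81.6 and rose by 3.47 ± 0.37 (limma, adjusted p = 7.65e-06). For both genes the light-only libraries were the lowest of the time point as a group. Tnfaip3, at 4.84, 3.36, 11.6 and 11.0 against 57.9, 74.0, 123 and 70.6 FPKM, rose by 3.33 ± 0.39 (limma, adjusted p = 1.95e-05). Nfkb1, at 17.2, 24.6, 13.4 and 24.1 against 71.5, 56.1, 49.9 and 71.0 FPKM, rose by 1.63 ± 0.36 (limma, adjusted p = 0.0143), a call that was lost without PBM 24 h replicate 3 (adjusted p = 0.0512). Relb, at 4.58, 4.78, 3.33 and 0 against 17.1, 34.8, 10.0 and 25.8 FPKM, rose by 2.60 ± 0.67 (limma, adjusted p = 0.0415) and was not called without PBM 24 h replicate 1, 3 or 4 or LPS+PBM 24 h replicate 1, 2 or 4 (adjusted p = 0.0514 to 0.136), nor with a pseudocount of 0.1 (0.088). Of these 5 calls, 3 were kept without the columns at the end of the table, and Nfkb1 (adjusted p = 0.113) and Relb (0.136) were lost. No overlap was seen in 7 of 10 members, against 3.74% of genes. Nfkb2 had 18.8, 25.3, 23.3 and 14.5 FPKM with light and 54.8, 46.0, 44.8 and 56.0 with both, without overlap, and missed the threshold (limma, 1.28 ± 0.38, adjusted p = 0.085), which it passed with limma-voom (0.0229). Nfkbie (2.97 to 12.1 against 17.2 to 21.8 FPKM), Rel (0.94 to 3.91 against 2.02 to 9.35), Rela (25.7 to 40.7 against 38.4 to 61.4) and Bcl3 (9.97, 3.76, 0 and 3.92 in the LPS+PBM libraries) were not called (limma, adjusted p = 0.282, 0.618, 0.399 and 0.131).

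**Figure D3:**
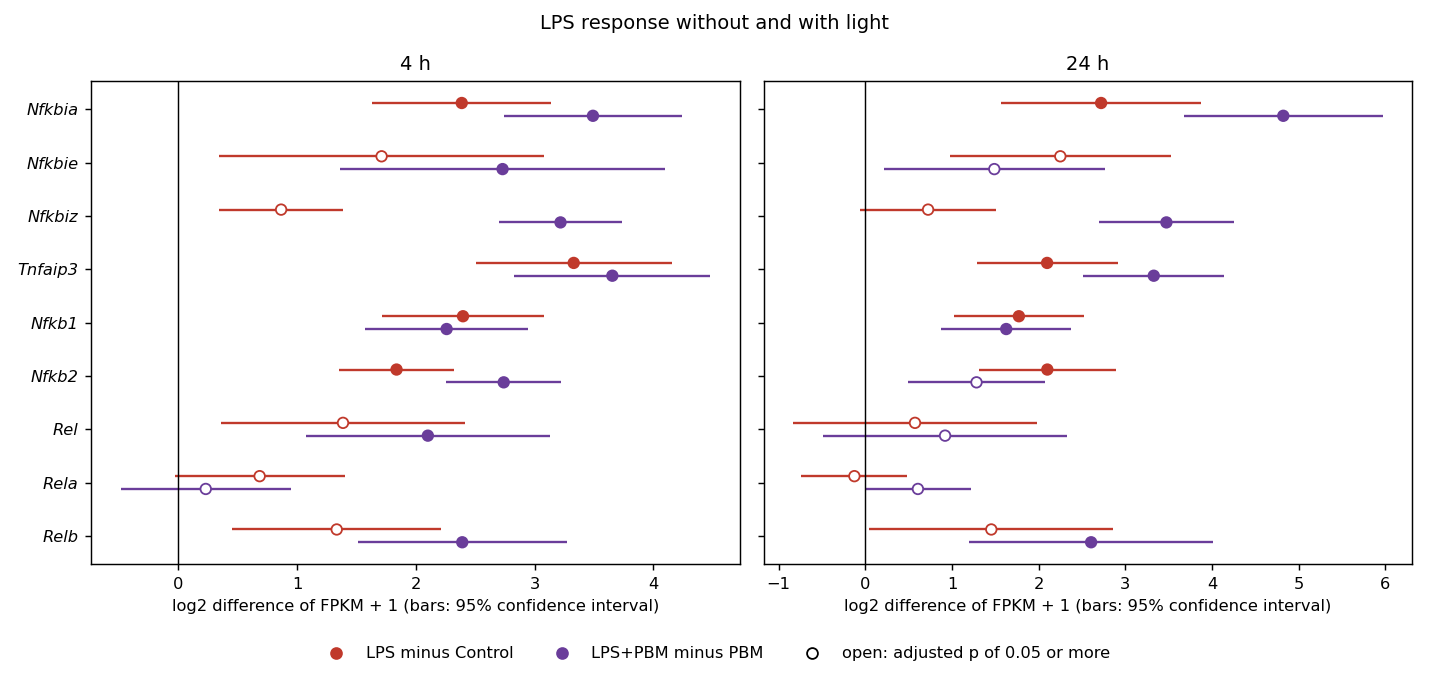
Log2 difference of FPKM + 1 (x axis) with 95% confidence intervals for 9 members (y axis; Bcl3 is left out, being listed at 0 in the comparison groups) for LPS minus Control and LPS+PBM minus PBM at 4 h and 24 h. Filled points passed an adjusted p of 0.05. Tnfaip3, Nfkbia and Nfkb1 are filled in all 4 contrasts, Rela in none, and Nfkbiz is filled with light only.

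Light without LPS changed 1 member, Nfkbiz, which was lower at both times. IkappaB zeta is an inducible nuclear cofactor that is needed for a secondary set of LPS-induced genes in mouse macrophages. At 4 h Nfkbiz had 35.0, 40.1, 39.9 and 52.0 FPKM in Control and 9.76, 9.73, 20.5 and 17.3 with PBM. Every light-treated library lay below every Control library (1 of 10 members, against 1.35% of genes), and Nfkbiz fell by 1.54 ± 0.25 on the log2 scale (limma, adjusted p = 0.0146). Of all genes tested 0.0302% (4 genes) were called lower and 0.0151% higher. This call was lost in 4 of 8 fits without 1 library, namely Control 4 h replicates 2 and 4 and PBM 4 h replicates 1 and 2 (adjusted p = 0.0552 to 0.0801), and with limma-voom (0.0866). At 24 h the gap was wider, with 29.3, 32.8, 41.3 and 54.8 FPKM in Control and 1.93, 12.1, 6.06 and 9.62 with PBM. These PBM values rest on about 16 fragments over the whole group. The groups were again apart, Nfkbiz fell by 2.43 ± 0.37 (limma, adjusted p = 0.00567), and the call was kept without any single library (adjusted p = 0.00168 to 0.035), where 0.0979% of genes were called lower and 0.0151% higher.

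Nfkbia was the other member whose light-treated libraries all lay below the Control libraries at 24 h (2 of 10 members, against 1.79% of genes), at 0, 9.24, 9.28 and 13.3 against 24.0, 22.1, 28.5 and 24.2 FPKM. It was not called (limma, -2.04 ± 0.55, unadjusted p = 0.0015, adjusted p = 0.345), and without PBM 24 h replicate 1, which is listed at 0, the difference was -1.16 (adjusted p = 0.0743). At 4 h Nfkbia had 46.6, 17.9, 14.1 and 13.2 FPKM with light, with replicate 1 inside the Control range of 18.4 to 56.8 (limma, adjusted p = 0.904). The remaining 8 members overlapped between PBM and Control at both times, Bcl3 being listed at 0 in both. Tnfaip3, for example, had 24.9, 12.8, 15.4 and 4.82 FPKM with light at 4 h and 4.84, 3.36, 11.6 and 11.0 at 24 h, and Rela 25.3 to 56.9 and 25.7 to 40.7.

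Light on top of LPS moved no member past the threshold (limma: 0 of 10 at 4 h, as for all 13247 genes tested, 0%; 0 of 10 at 24 h, where 1 gene or 0.00753% was called). At an unadjusted p under 0.05 the 4 h comparison held 2 members, against 7.53% of genes, and the 24 h comparison none, against 5.14%. Those at 4 h were Nfkbiz and Nfkb2. Nfkbiz had 81.0, 76.7, 78.7 and 68.8 FPKM with LPS and 145, 145, 128 and 122 with LPS and light (0.82 ± 0.25, unadjusted p = 0.00399, limma, adjusted p = 0.423), and limma-voom called it higher (adjusted p = 0.0449). Nfkb2 had 67.2, 99.6, 84.4 and 108 against 187, 176, 141 and 112 FPKM (0.77 ± 0.23, unadjusted p = 0.00366, limma, adjusted p = 0.414). Rel, at 11.5, 14.9, 8.05 and 8.92 against 19.0, 21.9, 20.8 and 16.0 FPKM, was the further member without overlap (limma, adjusted p = 0.747). In these 3 of 10 members every LPS+PBM library lay above every LPS library, against 1.7% of genes tested. The other 7 members overlapped, among them Nfkbia (145 to 233 against 187 to 299.8 FPKM, 95% interval of the log2 difference -0.44 to 1.07) and Tnfaip3 (98.9 to 189 against 107 to 286, -0.47 to 1.18).

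At 24 h Nfkbiz and Rel overlapped between LPS and LPS+PBM. Nfkb2 had lower values with light, 54.8, 46.0, 44.8 and 56.0 FPKM against 61.2, 65.9, 60.3 and 61.6 with LPS alone, without overlap but far from the threshold (limma, -0.30 ± 0.38, adjusted p = 0.978); 1.13% of genes had every LPS+PBM library below every LPS library. Nfkbia was close in both groups, at 171 ± 35.1 and 175 ± 11.4 FPKM (95% interval of the log2 difference -1.09 to 1.21). Nfkbiz had 64.2 ± 4.03 and 81.6 ± 16.3 FPKM. At neither time, then, did light lower an LPS-raised inhibitor or subunit by a difference that passed the test.

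Whether light acted differently with and without LPS was tested as the interaction, that is the light effect under LPS minus the light effect without it. Nfkbiz was the member called at 4 h: light went with a log2 difference of -1.54 without LPS and 0.82 with it, and these differed by 2.35 ± 0.35 (limma, adjusted p = 0.0103). Put in levels, Nfkbiz went from 41.7 ± 7.21 to 76.3 ± 5.34 FPKM under LPS without light and from 14.3 ± 5.44 to 135 ± 11.9 with light. Of all genes 0.0302% (4 genes, all higher) were called. The call was kept without any single library (adjusted p = 0.00388 to 0.0407) and lost without the columns at the end of the table (0.0856). At 24 h the Nfkbiz difference was 2.75 ± 0.53 and missed the threshold (limma, adjusted p = 0.0778), where 0.0527% of genes were called. It passed without PBM 24 h replicate 1 (0.046), without PBM 24 h replicate 2 (0.0239) and with limma-voom (0.0198). Unadjusted p-values under 0.05 (3 of 10 members at each time, against 6.45% of genes at 4 h and 5.29% at 24 h) were also found for Nfkbia and Nfkb2 at 4 h (limma, 1.10 ± 0.51 and 0.90 ± 0.33, adjusted p = 0.754 and 0.6) and for Nfkbia and Tnfaip3 at 24 h (2.10 ± 0.78 and 1.23 ± 0.55, adjusted p = 0.817 and 0.912). Thus a call under light and none without light, as for Rel and Relb at 4 h, is not by itself a tested difference (limma, adjusted p = 0.86 and 0.798).

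**Figure D4:**
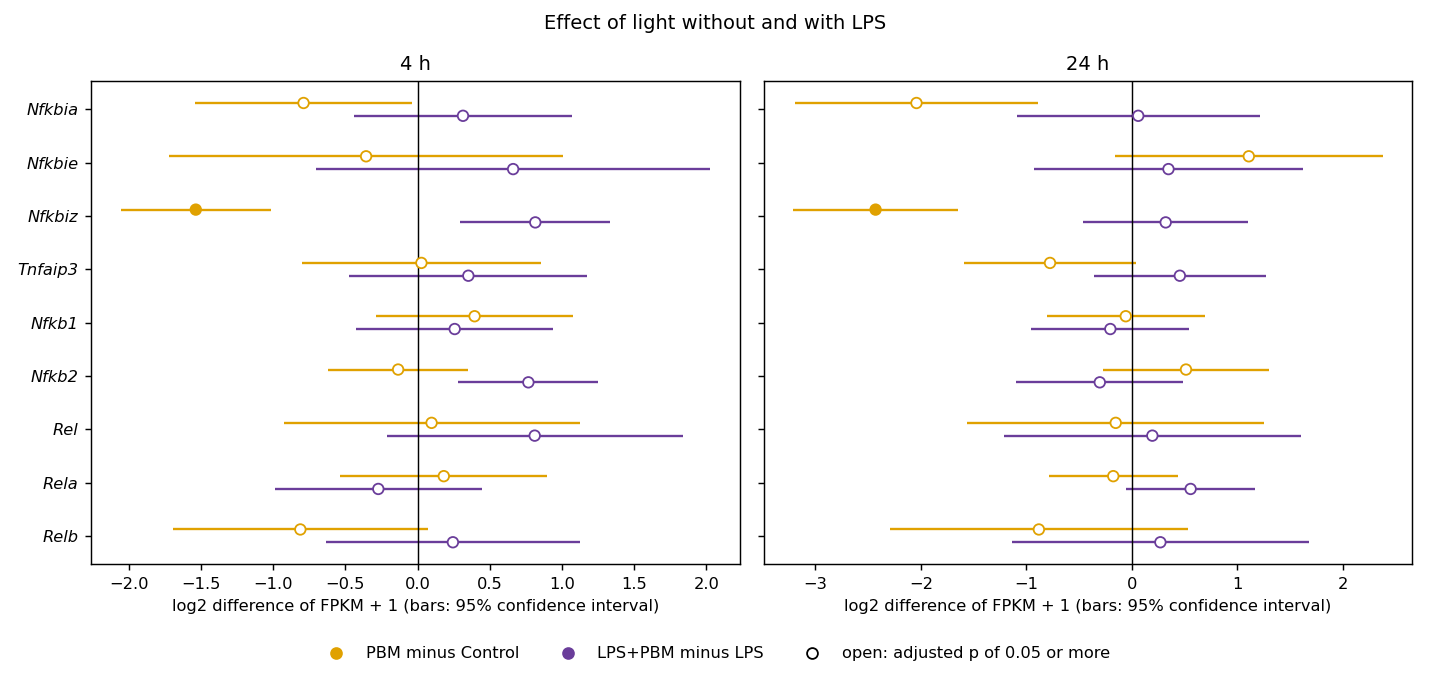
Log2 difference of FPKM + 1 (x axis) with 95% confidence intervals for 9 members (y axis; Bcl3 is left out) for PBM minus Control and LPS+PBM minus LPS at 4 h and 24 h. The filled points, past an adjusted p of 0.05, are Nfkbiz without LPS at 4 h (-1.54) and at 24 h (-2.43); with LPS the Nfkbiz points lie above 0.

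The 3 subunit genes Nfkb2, Nfkb1 and Rel were called lower at 24 h than at 4 h where LPS and light were combined. The times are separate libraries. In all comparisons between them, sampling time and any handling that differed between the times cannot be told apart. Nfkb2 went from 187, 176, 141 and 112 FPKM at 4 h to 54.8, 46.0, 44.8 and 56.0 at 24 h. It fell by 1.57 ± 0.31 (limma over all 32 libraries, adjusted p = 0.00182), and kept the call without any single library. Nfkb1 went from 197, 101, 138 and 181 to 71.5, 56.1, 49.9 and 71.0 FPKM and fell by 1.27 ± 0.35 (limma, adjusted p = 0.0379). Rel went from 19.0, 21.9, 20.8 and 16.0 to 2.02, 4.66, 9.35 and 2.92 FPKM and fell by 1.98 ± 0.55 (limma, adjusted p = 0.0396). All 3 genes were without overlap between the times, as were Nfkbia and Nfkbiz (5 of 10 members lower, against 4.07% of genes). Nfkb1 and Rel were each lost in 7 of 8 fits without 1 library (adjusted p = 0.0563 to 0.117 and 0.0609 to 0.136), being kept without LPS+PBM 4 h replicate 2 and LPS+PBM 24 h replicate 3, respectively, and without the columns at the end of the table Nfkb2 alone was kept. Rel was not called with a pseudocount of 0.1 (adjusted p = 0.234) or after quantile normalization (0.0701) either, and limma-voom called Nfkbiz (0.00435) and Tnfaip3 (0.00615) lower in addition. Of all genes tested 1.68% were called lower and 1.33% higher at 24 h.

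In cells given LPS alone 0 of 10 members were called between the times (limma; 0.804% of genes were called lower and 0.531% higher), and 4 had an unadjusted p under 0.05, against 11.6% of genes. Tnfaip3 had 98.9, 127, 132 and 189 FPKM at 4 h and 58.7, 51.0, 50.8 and 68.2 at 24 h, all lower, with a difference of -1.22 ± 0.40 (limma, adjusted p = 0.153; limma-voom called it, 0.0141). Without overlap, 5 of 10 members were lower at 24 h, against 3.29% of genes: Nfkbiz, Tnfaip3, Nfkb1, Nfkb2 and Rel. Whether the change between the times differed with light was not tested. The others with an unadjusted p under 0.05 (limma) were Nfkb1 (91.3 to 151 against 49.8 to 84.2 FPKM), Rel (8.05 to 14.9 against 1.93 to 4.92) and Rela (37.2 to 77.1 against 24.2 to 40.1). Nfkbia had means of 192 ± 40.1 and 171 ± 35.1 FPKM (95% interval of the log2 difference -1.17 to 0.84). In Control cells 0 of 10 members were called (limma; 0.517% of genes lower, 0.596% higher), with 1 member, Nfkb2, at an unadjusted p under 0.05, against 9.66% of genes. The LPS effect itself, LPS minus Control, did not pass the test for a difference between 24 h and 4 h in any member (0.617% of genes did), and the smallest p was that of Tnfaip3 (limma, -1.23 ± 0.56, unadjusted p = 0.0359, adjusted p = 0.555).

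**Figure D5:**
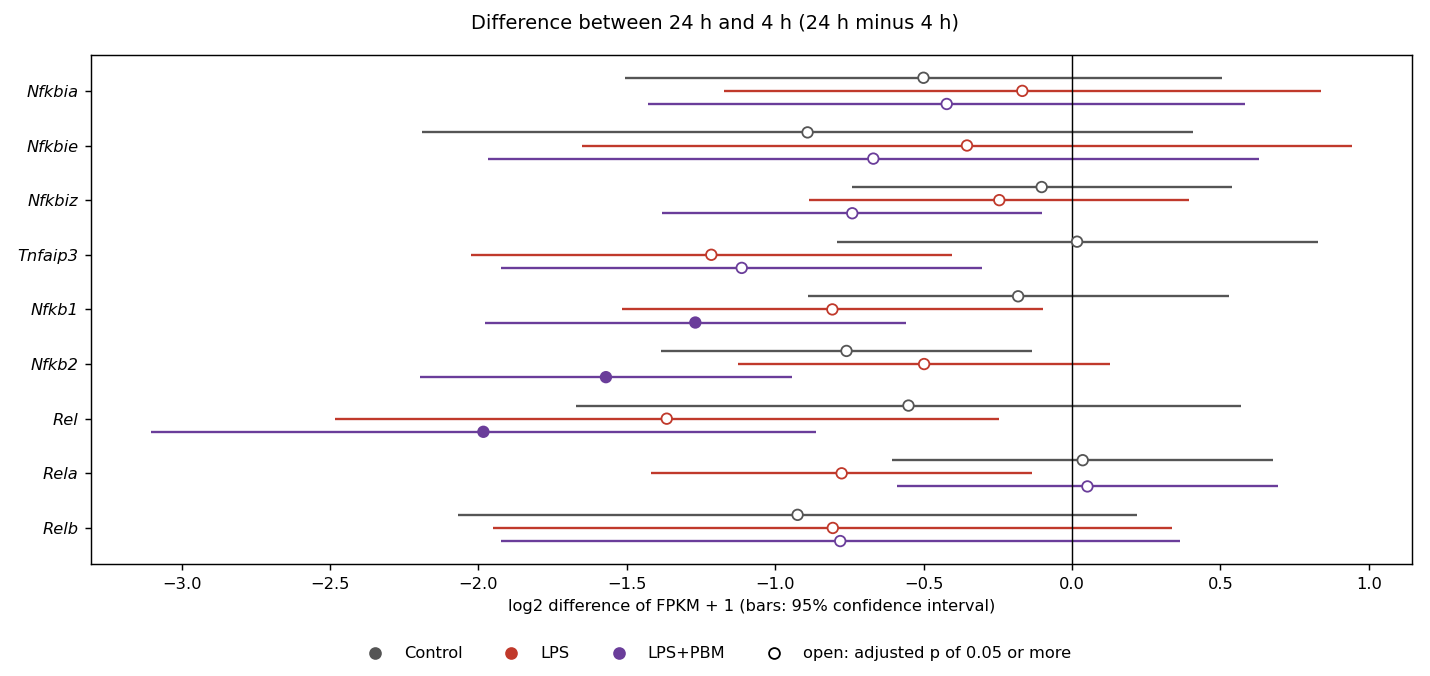
Log2 difference of FPKM + 1 between 24 h and 4 h (x axis, 24 h minus 4 h) with 95% confidence intervals for 9 members (y axis; Bcl3 is left out) in Control, LPS and LPS+PBM cells. Filled points passed an adjusted p of 0.05 and are Nfkb1, Nfkb2 and Rel under LPS+PBM, all lower at 24 h.

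Other genes of the pathway were counted from 3 lists, chosen with earlier results of these data known, so the counts are a description. Of all genes tested 1.75% were called higher under LPS at 4 h and 1.62% at 24 h. Of 22 kinases and adaptors upstream, 1 was called higher under LPS at each time, and none lower. It was Ikbke, which encodes an IKK-related kinase, with means of 5.34 in Control and 30.0 FPKM under LPS at 4 h (2.87 ± 0.66) and 4.13 and 40.3 at 24 h (3.05 ± 0.52; limma, adjusted p = 0.0201 and 0.00179). The core IKK subunit genes Chuk, Ikbkb and Ikbkg were not called under LPS alone; Chuk, named after its value was seen, was called lower with LPS and light than with light alone at 4 h (22.3 against 6.86 FPKM, -1.64 ± 0.38, adjusted p = 0.0218, limma). Of 22 further inhibitors and ubiquitin regulators 4 were called higher at 4 h. They were Zc3h12a, which encodes the RNase Regnase-1 (Control 3.94 against 31.7 FPKM, 2.82 ± 0.45, adjusted p = 0.00065), Tnip1, which encodes a partner of A20 (11.1 against 75.7 FPKM, 2.76 ± 0.44, adjusted p = 0.000668), Nfkbib, the gene of IkappaB beta (16.2 against 48.2 FPKM, 1.54 ± 0.36, adjusted p = 0.0224), and N4bp1 (10.4 against 26.4 FPKM, 1.31 ± 0.34, adjusted p = 0.0448; all limma). At 24 h the 2 called were Tnip1 (14.9 against 63.5 FPKM, 1.96 ± 0.45, adjusted p = 0.0197) and Tnip3, of the same family (0.46 against 9.44 FPKM, 2.67 ± 0.70, adjusted p = 0.0488; limma).

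Of 33 known NF-kappaB target genes outside the members 26 were called higher under LPS at 4 h, led by the chemokine genes Ccl2 (Control 37.7 against 1950.2 FPKM, 5.68 ± 0.20, adjusted p = 1.02e-12) and Cxcl10 (21.5 against 1224 FPKM, 5.87 ± 0.27, adjusted p = 6.45e-11) and the adhesion genes Vcam1 (37.1 against 617 FPKM, 4.05 ± 0.20, adjusted p = 1.24e-10) and Icam1 (22.0 against 236 FPKM, 3.39 ± 0.22, adjusted p = 8.18e-09; all limma). At 24 h 24 of the 32 tested were called, led by Ptx3, Il1a, Vcam1 and Il1b, of which Il1b was listed at 0 in Control and had a mean of 362 FPKM under LPS. None of these targets was called lower under LPS. Of all genes tested 1.75% at 4 h and 1.62% at 24 h were called higher. Since the list was chosen with earlier results of these data known, its counts are not a test of the pathway. Between LPS+PBM and LPS 0 of 33 targets at 4 h and 0 of 32 at 24 h were called, with medians of -0.04 and -0.11 on the log2 scale beside -0.02 and 0 over all genes (limma; at an unadjusted p under 0.05, 4 and 0). With light alone 2 of 32 targets were called lower at 24 h, where 0.0979% of all genes tested (13 genes) were. Both were named after their values were seen: Ptgs2, the gene of cyclooxygenase-2 (232 against 115 FPKM, -1.01 ± 0.11, adjusted p = 9.04e-05), and Ier3 (67.7 against 22.0 FPKM, -1.67 ± 0.30, adjusted p = 0.0257; limma).

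Across the 8 group means the members moved alike to different degrees, which is given as a description, since the means share libraries of the same treatment and most of the variation is the LPS response. The log2 means of Nfkb1 followed those of Tnfaip3 (Pearson's r = 0.98) and Nfkb2 (0.98), and those of Nfkbia followed Relb (0.99). Rela was less like the others, at 0.51 with Bcl3 to 0.78 with Rel. Among the 6819 genes averaging 10 FPKM or more, the gene most like Nfkbia was Ptgs2 (0.99), the gene most like Tnfaip3 was Cd69 (0.998), and Pdgfb was most like both Nfkb1 and Nfkb2 (0.99 each). Nfkbiz stood somewhat apart, with Svbp, Rnf115 and Plat nearest (0.97, 0.96 and 0.96). For Nfkbie the nearest were Daam1 and Tnfaip2 (0.98 each), for Relb Nfkbia, Bmp2k and St3gal1, and for Rela Prrc2c, Ywhag and Scoc (0.96, 0.96 and 0.93). Rel and Bcl3 were too low for this ranking.

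Marker levels of the cell types were compared between LPS and Control libraries. The summed level of the 17 microglia and macrophage markers was 730 to 885 FPKM in Control, 548 to 851 in PBM, 475 to 677 in LPS and 563 to 811 in LPS+PBM libraries at 4 h. At 24 h it was 885 to 919, 675 to 910, 668 to 776 and 496 to 832 in the same order. At both times the LPS libraries all lay below the Control libraries in this sum, but single markers differed in direction. Of the 17 markers tested at 24 h, Trem2, C1qc and Cd68 were called lower under LPS. Fcer1g was called higher (49.5 against 117.5 FPKM, 1.21 ± 0.25, limma, adjusted p = 0.00888). At 4 h 0 of 15 were called. There 5 had an unadjusted p under 0.05 (limma), with no share over all genes given beside it. Among all genes tested under LPS, 0.941% were called lower and 1.62% higher at 24 h. At 4 h the shares were 0.476% and 1.75%. The summed level of the 12 astrocyte markers was 1735 to 2013 FPKM in Control and 1391 to 1621 in LPS libraries at 4 h, and 1703 to 1890 against 878 to 1111 at 24 h. In LPS+PBM libraries it was 1761 to 1906 at 4 h and 925 to 1102 at 24 h. Most of this sum is Vim, with group means of 801 to 1579 FPKM. Gfap, Glul and Vim were called lower under LPS at 24 h (limma, 3 of 11 astrocyte markers tested). The summed level of the 7 endothelial and mural markers was 1038 to 1433 FPKM in Control and 1017 to 1477 in LPS libraries at 4 h, and 956 to 1069 against 658 to 678 at 24 h, where Acta2 was called lower. Acta2, with group means of 611 to 1170 FPKM, makes up most of that sum. For the 5 fibroblast and meningeal markers the sums were 1239 to 1464 against 1004 to 1265 FPKM at 4 h, where Col1a1 was called lower. At 24 h they were 1599 to 1724 against 1573 to 1795, and Dcn was called higher (145 against 422 FPKM, 1.54 ± 0.15, limma, adjusted p = 3.04e-06). Neuronal sums were 60.7 to 80.6 against 36.4 to 55.6 FPKM at 4 h and 65.0 to 116 against 65.7 to 116 at 24 h. Those of the oligodendrocyte lineage were 49.9 to 64.4 against 25.0 to 50.9 and 37.9 to 54.5 against 21.7 to 40.4 FPKM. The part of these shifts in the members' values was not tested.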

How the data were processed

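RNA of 32 libraries of primary mouse astrocytes was measured by sequencing. Per the labels' protocols, total RNA was reverse transcribed from an oligo-dT primer with template switching, and amplified by PCR before sequencing (Illumina NovaSeq), with no mention of molecular identifiers. Per the submitters' processing notes, the tools were HISAT2, RSEM, StringTie 1.3.1, fastp 0.18.0 and Bowtie2 2.2.8, on mm10. No source used here gives the strand setting or the tool that made the values. The authors deposited FPKM values with 2 decimals for 21899 genes. Of the IDs, 21806 matched GENCODE M21 (GRCm38), which gave coordinates.

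Depth is not given. It was inferred from 4310 genes with 1 transcript, where 92.35% of 20346 values of up to 10 fragments were whole within 0.05. Gene totals per library came to 130780 to 143930 fragments, so low values carry counting error, and PCR copies cannot be told from molecules.

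Genes that averaged 1 FPKM or more in any fitted group were tested with limma 3.58.1 (R 4.3.3) on log2(FPKM + 1), with trend and robust variances. This scale understates changes between low values above 0, while a library listed at 0 can enlarge a difference. Each time point had its own fit of 16 libraries (13247 genes at 4 h, 13278 at 24 h), and comparisons between times used all 32 (13937). Benjamini-Hochberg adjustment ran over all genes tested, with calls at an adjusted p under 0.05. The script was tested on simulated data. Alternatives were a pseudocount of 0.1, no filter, quantile normalization, the replicate number as a block, limma-voom on approximate fragments, each library left out, and, chosen after seeing the data, median scaling and the 6 last-listed columns left out. The members, the 3 further lists and the marker lists were chosen with earlier results of these data known. All members are named; from the further lists up to 4 genes with the smallest adjusted p under LPS were named, and for each member averaging 10 FPKM or more the 3 genes of highest Pearson correlation over the 8 log2 group means. Ppia, a housekeeping gene, was listed at 0 in 14 libraries, so a 0 is reported as listed.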

Additional observations from a re-analysis of the deposited data

Results flagged for a closer look

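Nfkbia in the PBM 4 h group was flagged because replicate 1, at 46.6 FPKM, lies far from the other 3 libraries (13.2 to 17.9 FPKM), a gap of 0.861 of the group's range and past Dixon's 95% critical value for 4 samples. It was the 1 flag among 80 gene and group combinations checked, where chance gives about 1 in 20. The light effect on Nfkbiz was flagged because it differed between cells with and without LPS at 4 h, by 2.35 on the log2 scale (limma interaction, adjusted p = 0.0103).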

How the results depend on the processing

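For single members, 63 log2 differences were recomputed under 7 alternatives and without each library in turn. They were all those of LPS against Control and of LPS+PBM against PBM. From the other comparisons only those with an unadjusted p under 0.05 (limma) were taken. Smaller differences there were not followed, so the counts below do not cover them. Of 1001 such values, 923 kept their direction and their side of the threshold, 64 lost a call, 13 gained one and 1 changed sign: Rela, LPS against Control at 24 h, went from -0.13 to 0.00022 without LPS 24 h replicate 4 (range without 1 library -0.37 to 0.00022). Group medians in place of means moved none of the 80 levels by more than 1 SD. The causes of the changes below were not tested, except that leaving out libraries leaves fewer samples.

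With limma-voom on approximate fragments, members called went from 1 to 0 for PBM against Control at 4 h, 0 to 1 for LPS+PBM against LPS at 4 h, 0 to 1 for the interaction at 24 h, 0 to 1 for LPS between times and 3 to 5 for LPS+PBM between times. Genes called went from 6 to 2 for PBM against Control at 4 h, 0 to 13 for LPS+PBM against LPS at 4 h, 186 to 300 for LPS between times and 1 to 0 for LPS+PBM against LPS at 24 h. With a pseudocount of 0.1, 1 gene was called for LPS+PBM against LPS at 4 h.

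Without the 6 last-listed columns, members called went from 1 to 0 (interaction, 4 h), 5 to 0 (LPS against Control, 24 h), 5 to 3 (LPS+PBM against PBM, 24 h) and 3 to 1 (LPS+PBM between times). Genes called went from 4 to 1, 340 to 159, 359 to 180 and 420 to 258 in these, from 0 to 1 for LPS+PBM against LPS at 4 h and 1 to 0 at 24 h, from 15 to 9 for PBM against Control at 24 h, from 7 to 1 for the interaction at 24 h, from 186 to 88 for LPS between times and from 86 to 42 for the LPS effect between times.

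Without 1 library at a time, members called ranged from 0 to 1 for PBM against Control at 4 h and for the interaction at 24 h, 3 to 6 for LPS+PBM against PBM at 24 h and 1 to 2 for LPS+PBM between times. Genes called ranged from 0 to 2 for LPS+PBM against LPS at 4 h, 1 to 5 at 24 h, and 4 to 8 for the interaction at 24 h.

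Replicate numbers recur in all groups, but residuals of same-numbered libraries correlated at -0.025 to 0.035 (48 pairs, 8990 genes) and of others at -0.047 to 0.043, so the numbers were not taken to pair the libraries. With the replicate number as a block, members called went from 1 to 0 for PBM against Control at 4 h (Nfkbiz, adjusted p = 0.0616, limma) and genes called from 7 to 4 for the interaction at 24 h. Relb for LPS+PBM against PBM at 24 h (0.0525) and Rel for LPS+PBM between times (0.0566) were not called with the block either. The share of higher calls for LPS against Control at 4 h was 78.6%, and 68.1% with limma-voom. Depth limits the low members most: Bcl3 rests on at most 7 approximate fragments in any group.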
